A study of Mus musculus with 8 samples.

Results

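The CpG-poor promoters of coding genes are the starts of protein-coding mouse genes that miss a limit of GC content or of CpG ratio. A gene was placed here when the 500 bases on each side of its annotated 5′ end had a GC content under 0.55 or an observed over expected CpG ratio under 0.6. This is not the same as lying outside a CpG island, since 715 members lie within 500 bp of a CpG-rich start. Of 20807 coding genes on chromosomes 1 to 19, the 1457 odorant and vomeronasal receptor genes named Olfr, Vmn1r or Vmn2r were left out, and 11118 of the other 19350 promoters, 57.5%, were CpG-poor. The study applied CUT&Tag with an antibody to the transcription factor SOX9 to the spinal cord of wild type mice, uninjured or 1 day after a contusion (1 dpi). A 5 mm segment was taken around the injury, or at the same level in uninjured animals, and 150000 nuclei a sample, sorted by 7AAD staining, entered the assay. Each condition has 1 male (M) and 1 female (F) nuclei sample, so sex and replicate cannot be told apart. From each sample, 20% of the nuclei were set aside and received the secondary antibody alone, which gives 4 SOX9 and 4 control libraries. By the study's methods the wild type mice were C57BL/6 and aged 8 to 12 weeks at entry, while its reporting summary gives an age range that reaches higher. Animals were pooled for sequencing, and the methods give a range of animals for each condition. How many each of these nuclei samples holds is not given by the labels.

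CpG islands cover the promoters of most housekeeping and many developmental genes and keep their chromatin open in nearly all cells. Promoters outside them belong more often to genes used in 1 or a few cell types, such as those of secreted proteins, receptors and structural proteins, and often start transcription from a TATA box. In the spinal cord SOX9 is made by astrocytes, ependymal cells and some oligodendrocyte precursors. The labels name 7AAD alone as the stain used for sorting.

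The SOX9 libraries held 1901433 (uninjured M), 7248962 (uninjured F), 2538725 (1 dpi M) and 2396777 (1 dpi F) fragments, and the controls 22848, 47049, 53341 and 10948 in the same order. Values below are the mean coverage of the 1 kb on each side of a start divided by the mean coverage of chromosomes 1 to 19 in that library, called times the library mean, and lists of 4 values follow that same order. A single fragment of 200 bp in a window equals 0.527, 0.156, 0.381 and 0.402 times the mean in the SOX9 libraries but 51.6, 26.4, 22.3 and 96.4 in the controls, so most single CpG-poor promoters cannot be read in the controls. The control fragments are also largely shared with the SOX9 libraries: 93.5%, 82.2%, 86.0% and 91.3% of the control fragments that overlap no other lay at the same position as a fragment of a SOX9 library. After a shift of 1 kb at most 0.0427% did. The match was often to a SOX9 library of another nuclei sample. These control fragments matched the SOX9 library of their own sample at 33.3%, 42.8%, 24.7% and 19%, while those of 1 dpi F matched uninjured F at 34.5% and those of 1 dpi M at 27.6%.

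Summed over all 11118 CpG-poor promoters, the SOX9 libraries did not stand above the controls while all control fragments were kept. The average CpG-poor promoter stood at 3.26, 4.73, 3.99 and 3.53 times the library mean in the SOX9 libraries and at 4.19, 4.46, 4.02 and 3.85 in the controls, and these ranges overlap. SOX9 libraries averaged 3.88 ± 0.641 (SD, n = 4) and controls 4.13 ± 0.260 (SD, n = 4), which is 0.938 as a ratio (exact two-sided permutation test p = 0.486; the smallest this design gives is 0.0286). Pairing the libraries of the same nuclei sample, though fragments are shared across samples too, gave the same ratio of 0.938 (exact sign-flip p = 0.375). An alternative kept only control fragments that overlap no other (21946, 40406, 44452 and 10658) and took out the shared ones among them. Overlapping control fragments were thus left out whether shared or not. The controls then read 3.92, 3.07, 3.07 and 2.94, a mean of 3.25 ± 0.451 (SD, n = 4), and the ratio turned to 1.19 (exact permutation p = 0.171). This choice takes out control fragments where the SOX9 libraries have coverage, so no conclusion is drawn from the turn. The CpG-poor windows cover 0.876% of the chromosomes and held 2.72%, 3.87%, 3.38% and 2.95% of the SOX9 fragments. They held 3.49% (95% Wilson interval 3.26 to 3.74), 3.62% (3.45 to 3.80), 3.31% (3.16 to 3.47) and 3.35% (3.02 to 3.71) of the control fragments. These intervals cover counting error alone.

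Within the SOX9 libraries, CpG-poor promoters stood below CpG-rich ones in every library, as they did in the controls. The median CpG-poor promoter read 1.69, 2.06, 1.88 and 1.85 times the library mean and the median CpG-rich promoter 5.73, 11.1, 8.02 and 6.93. Uninjured F, the deepest library, had the highest median in both classes. The difference of the medians on the log2 scale was -1.51, -2.19, -1.84 and -1.66, a mean of -1.80 ± 0.292 (SD, n = 4), and the exact two-sided sign-flip p was the smallest that 4 libraries can give, with all 4 on 1 side. Of the CpG-poor promoters, 16.5%, 6.22%, 13.8% and 13.0% had no coverage in their window, against 1.40%, 0.0364%, 0.449% and 0.571% of the CpG-rich ones. In the controls the merged windows of the class read 4.05, 4.31, 3.92 and 3.71 and those of CpG-rich promoters 10.6, 11.1, 9.57 and 10.8, and in the SOX9 libraries 3.19, 4.56, 3.87 and 3.44 against 7.01, 14.1, 10.3 and 8.39. In all 4 SOX9 libraries together, 155 CpG-poor promoters and 0 CpG-rich ones had none.

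The class was spread widely. Its 90th percentile lay at 7.03, 11.6, 9.22 and 7.84 times the mean and its 99th at 17.1, 32.8, 25.9 and 20.9. At 3 times the mean or more in both uninjured libraries stood 3207 CpG-poor promoters (28.8%; all promoters 48.8%), and 3214 did in both 1 dpi libraries (28.9%; all promoters 50.0%). In all 4 libraries 2538 did, 22.8%, against 5739 CpG-rich promoters, 69.7%. Another 669 reached 3 times the mean in both uninjured libraries but not both at 1 dpi, and 676 in both at 1 dpi but not both uninjured. Over all 19350 promoters 9444 reached it in both uninjured libraries, 9666 in both at 1 dpi and 8277 in all 4. Across the 11118 promoters the log2 values of 2 SOX9 libraries correlated with a Pearson r of 0.741 (uninjured M with 1 dpi F) to 0.880 (uninjured F with 1 dpi M), over promoters that share base composition and neighbours and are not replicates.

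Coverage of the CpG-poor promoters was highest at the start itself. In bins of 100 bp averaged over the class, the highest bin lay within 200 bp after the start and read 5.07, 8.56, 6.68 and 5.71 times the mean, and at 2 kb before the start it was 1.94, 1.94, 1.93 and 1.83. The 9831 members with no CpG-rich coding start within 2 kb showed the same shape at a lower height, with 4.62, 7.44, 5.85 and 5.08 in their highest bin. CpG-rich promoters reached 13.8, 33.8, 21.9 and 16.7. The controls, most of whose fragments are shared, had the same peak: 8.10, 8.32, 7.88 and 6.58 over all CpG-poor promoters, above the SOX9 library of the same sample except in uninjured F, and 26.7, 27.2, 23.1 and 25.8 over CpG-rich ones.

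The members were not alike in how they met the rule. Those failing both limits, 7278, had medians of 1.05, 0.971, 1.06 and 1.11 times the mean, those failing GC alone, 1586, 3.87, 6.99, 5.27 and 4.45, and those failing the CpG ratio alone, 2254, 3.52, 5.16, 4.15 and 3.79. So the members failing both stood near the genome mean and the rest between them and the CpG-rich promoters. By GC content, the 785 members under 0.4 had medians of 0, 0.138, 0 and 0.0422, the 3828 from 0.5 to 0.55 2.64, 3.95, 3.27 and 2.95, and the 521 at 0.6 or above 4.05, 6.73, 5.20 and 4.75. By CpG ratio, medians went from 0.495, 0.298, 0.387 and 0.456 under 0.1 (989 members) to 4.29, 7.44, 5.71 and 5.14 at 0.75 or above (583 members). Coverage was thus higher at GC-rich and CpG-richer members in each SOX9 library. Base composition also affects amplification and mapping, and its part in these values was not tested.

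Distance to a CpG-rich start went with coverage too. The 715 members within 500 bp of a CpG-rich start of a coding transcript had medians of 4.84, 9.18, 6.69 and 5.65 times the mean, and the 3834 more than 100 kb away 0.761, 0.536, 0.715 and 0.762. In between, the 1074 members at 2 to 10 kb read 3.06, 4.28, 3.33 and 3.23 and the 4923 at 10 to 100 kb 1.94, 2.32, 2.15 and 2.1, so in each library the medians were lower at each step of distance. The order by GC content was also present among isolated members, those with no CpG-rich start within 2 kb: 0, 0.136, 0 and 0.0281 under a GC of 0.4 (777 members) and 3.30, 4.58, 3.64 and 3.45 at 0.55 or above (1895 members). Of the class, 1645 genes have a CpG-rich start of their own at another place.

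Arrangement and content of the window separated members further. The 82 members that start head to head with a CpG-rich promoter had medians of 8.06, 16, 13.0 and 10.6, the 315 head to head with another CpG-poor promoter 4.83, 8.36, 6.69 and 5.69, and the other 10721 1.61, 1.92, 1.79 and 1.77. Windows of such pairs can overlap, so that both genes share fragments. Members with under 10% of repeats in the window, 2641, read 2.3, 3.21, 2.75 and 2.69 and those with 50 to 90%, 263, 0.721, 0.475, 0.728 and 0.744. The 726 genes whose transcripts all have a single exon read 0.827, 0.606, 0.737 and 0.900. By chromosome, the share of members at 3 times the mean or more in all 4 libraries was highest on chromosome 19 (33.8%) and lowest on chromosome 1 (15.6%).

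Genes beside the limits were compared as a description. Just inside the GC limit, at 54.9%, were Cacnb4, a calcium channel subunit (4.16, 3.34, 4.44 and 1.23 times the mean), Ppp6c, a phosphatase (5.36, 9.90, 6.43 and 7.43), and Zfp248 (10.6, 9.96, 6.57 and 4.62). Just outside, at 55%, were Stx5a, a Golgi syntaxin (6.21, 30.8, 26.8 and 16.3), Fdxr (19.9, 39.6, 27.4 and 23.3) and Cfap97d1 (9.10, 16.1, 13.2 and 16.1). In uninjured F and both 1 dpi libraries the 3 outside stood above the 3 inside, and in uninjured M they overlap. At the CpG ratio limit of 0.6, genes inside were Etnk2 (3.21, 8.06, 6.35 and 6.34) and Rnaseh2b (3.18, 3.23, 2.51 and 0.914), and outside Mfsd4b3 (4.48, 3.73, 5.92 and 5.78), Ankrd13d (12.2, 25.5, 18.8 and 8.91) and S1pr1 (1.58, 2.95, 3.30 and 4.24), of which Ankrd13d stood above both genes inside in every library and the others overlap them.

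The 10 CpG-poor promoters with the highest coverage are predicted genes in blocks of repeats, each with a mean over the 4 SOX9 libraries above 100 times the library mean. The highest was Gm10800 on chromosome 2, with 1458, 727, 1083 and 1170 times the mean in the SOX9 libraries and 1872, 1959, 2206 and 2007 in the controls. The others, Gm10722, Gm10718, Gm10717, Gm21738, Gm11168, Gm17535, Gm10721, Gm10801 and Gm10719, went from 779, 323, 509 and 570 (Gm10722) down to 155, 77.3, 123 and 116 (Gm10719). In each of the 10 uninjured F was the lowest SOX9 library. Repeats take 49.9% (Gm10801) to 97.8% of their windows, and reads from such copies cannot be placed with certainty, so these values are uncertain. They hold 12.1%, 3.91%, 7.11% and 8.72% of the summed SOX9 coverage of the class. Left out, the mean CpG-poor promoter was 3.59 ± 0.725 (SD, n = 4) in SOX9 libraries and 3.83 ± 0.251 (SD, n = 4) in the controls, with 0.937 as the ratio (exact permutation p = 0.571). The ratio was 1.11 when overlapping and shared control fragments were left out too (exact permutation p = 0.543).

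With a mean under 100 times the library mean, the highest isolated members, chosen after their values were seen, are genes of many functions. Gm10715 and Gm10720, with means of 86.3 and 78.8, lie in the same blocks as the predicted genes above. Usp5, a deubiquitinase, and Cdca3, a cell division gene, share 1 window (Usp5 64.1, 117, 93.9 and 63.5). Next came Eml2, a microtubule-binding protein (37.0, 78.3, 55.7 and 40.8), Trf, the iron carrier transferrin (36.0, 56.5, 73.4 and 41.4; Gm20425 shares its start), Ensa, an inhibitor of a mitotic phosphatase (34.4, 68.3, 54.5 and 41.5), and Gamt, an enzyme of creatine synthesis that shares its start region with Dazap1 (26.9, 70.7, 39.1 and 38.0). Uninjured F was highest at Usp5, Eml2, Ensa and Gamt, and 1 dpi M at Trf. Bhlhe40, a clock-linked repressor, read 23.1, 37.7, 30.2 and 39.3. Near CpG-rich starts stood Cic, a transcriptional repressor, with 57.6, 125, 112 and 81.1. The 100 highest members held 12.3% to 18.7% of the summed SOX9 coverage of the class and the highest 10% of members 45.3% to 47.5%.

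The class as a whole did not separate 1 dpi from uninjured cord. The average CpG-poor promoter read 3.26 and 4.73 times the mean uninjured and 3.99 and 3.53 at 1 dpi, so the uninjured libraries lie on both sides of the 1 dpi ones. Uninjured cord averaged 3.99 ± 1.03 (SD, n = 2) and 1 dpi 3.76 ± 0.326 (SD, n = 2), which is 0.941 as a ratio of 1 dpi over uninjured (exact permutation p = 1; the smallest 2 against 2 gives is 0.33). Without uninjured F the ratio turned to 1.15. The M and F pairs differed in sign: the median log2 difference of the tested members, 1 dpi over uninjured, was 0.29 in the M pair and -0.39 in the F pair, with 4698 and 2285 of 7448 higher at 1 dpi. Over all 15517 tested promoters the medians were 0.43 and -0.57, with 10957 and 3134 higher, so the opposite signs were not limited to the class. F stood above M by a median of 0.54 uninjured and -0.14 at 1 dpi.

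For single promoters, limma was fitted to the 15517 promoters with a mean of at least 1 over the 4 SOX9 libraries, 7448 of them CpG-poor (67.0% of the class; the other 3670 were too low to test). The p-values measure the spread between libraries alone, with 1 M and 1 F sample a group. A promoter low in 1 group can pass the filter through the other group, and its p-value is then not independent of the filter. Of the CpG-poor promoters, 1 was called higher at 1 dpi with an adjusted p under 0.05 (all promoters 0.00644%) and 0 lower (all promoters 0%), and at an unadjusted p under 0.05 limma gave 86 higher and 89 lower, beside 122 and 142 of all 15517. This unadjusted total of 175 in the class depended on the processing. It became 51 with a level filter of 3, 104 with trimmed mean scaling and 603 with all 8 libraries. Both 1 dpi libraries stood above both uninjured ones at 846 members (11.4%; all promoters 7.35%) and below both at 1207 (16.2%; all promoters 14.9%). The median log2 difference was -0.05 in CpG-poor promoters and -0.08 in all tested, with a median standard error of 0.68 in the class.

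The promoter called higher was that of Gm11361, a predicted gene of 607 bp in 1 exon on the forward strand (GRCm38 chr13:28256528-28258528 for the window). It read 0, 0.853, 5.44 and 15.0 times the mean, from 0, 5, 10 and 30 fragments. Both 1 dpi libraries stood above both uninjured ones, and the coverage lay inside the gene, where it was 0, 2.81, 17.3 and 49.4 times the mean, with at most 0.378 in the flanks. The log2 difference was 3.54 (SE 0.71; limma adjusted p = 0.00868). Both uninjured values lie under the level filter of 1, which the promoter passed through its 1 dpi libraries alone. This p-value is therefore not independent of the filter and no conclusion is drawn from it. The controls held 0, 13, 17 and 0 fragments here. Of these 30, 0 both overlapped no other control fragment and had no match in a SOX9 library. Control fragments that overlap each other were not checked for sharing, so how many of the 30 are shared is not known. Its sequence is 99.3% identical over 540 bp to the spliced transcript of Rps18, a gene of 6 exons for a ribosomal protein, so the source of the reads is uncertain, and how they came to this place was not tested. The call was lost without uninjured M, without 1 dpi M and without 1 dpi F, and also with trimmed mean scaling, with no level filter or a minimum of 3, with all 8 libraries and with equal numbers of fragments. The log2 difference stayed at 3.54 with no level filter, a minimum of 3 and all 8 libraries. It was 3.48 with trimmed mean scaling, 3.73 with equal numbers of fragments and 2.82 to 4.26 with a library left out. Over all alternatives the adjusted p went from 0.00272 to 1. Without uninjured F it was kept (adjusted p = 0.0417), and Qars, a tRNA synthetase with 1.12, 12.7, 13.9 and 17.4, was called too (log2 3.31, limma adjusted p = 0.0276).

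At 2 other copies of ribosomal protein transcripts, chosen after their values were seen, both 1 dpi libraries also stood above both uninjured ones. Gm10260, 99.1% identical to the Rps18 transcript over 545 bp, read 8.24, 3.45, 14.8 and 44.7 times the mean and held 60 control fragments. Of these, 1 overlapped no other control fragment and had no match in a SOX9 library, and overlapping ones were not checked for sharing. Rpl10-ps3, 100% identical over 740 bp to the transcript of Rpl10, read 1.39, 0.621, 4.74 and 12.3 (log2 2.49). In both, 1 dpi F was highest and uninjured F lowest, and like Gm11361 they are reported as uncertain. Among the 314 tested members with a single exon, both 1 dpi libraries stood above both uninjured ones at 48 (15.3%) and below at 41 (13.1%). Among the 7134 with several exons it was 798 (11.2%) and 1166 (16.3%), beside 7.35% and 14.9% of all tested promoters. With those members alone limma called 0, but this choice takes out Gm11361, the 1 promoter called, so it tests nothing.

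The other members with the widest difference did not pass the limma test, with adjusted p from 0.926 to 1.00. Higher at 1 dpi stood C4b, a complement component (1.49, 2.73, 16.3 and 9.74; log2 2.37), with 5, 20, 36 and 17 fragments. Slc10a6, a transporter of sulfated steroids, read 1.16, 0.147, 7.57 and 4.84 (log2 2.66), and Gys2, the liver glycogen synthase, 0, 0.0297, 1.82 and 2.36 (log2 2.32), the latter from 0, 1, 3 and 5 fragments. In these genes the 2 groups do not overlap, which is how they were chosen. Lower at 1 dpi stood Odf3, a sperm tail gene (7.77, 3.77, 1.15 and 0.502; log2 -2.21), Pef1, a calcium-binding protein (6.20, 2.0, 0.240 and 0.408; log2 -2.32), and Hoxb1, a hindbrain Hox gene (3.18, 2.36, 0.305 and 0; log2 -2.36). Krt71, a hair keratin, read 5.50, 1.16, 0 and 0.203 (log2 -2.41). Hsd17b6, a steroid dehydrogenase, read 4.72 and 1.17 uninjured, from 6 and 8 fragments, and is listed at 0 in both 1 dpi libraries. The uninjured means of Slc10a6 and Gys2 lie under the level filter of 1, which they passed through their 1 dpi libraries. Odf3, Pef1, Hoxb1, Krt71 and Hsd17b6 have 1 dpi means under it and passed through their uninjured libraries. Their p-values are therefore not independent of the filter.

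Astrocyte genes had medians above those of the class. The list of 31 has 21 CpG-poor promoters with medians of 3.76, 5.59, 5.03 and 4.15 times the mean, and 9 (42.9%) stood at 3 times or more in all 4 libraries, beside 22.8% of the class and 42.8% of all promoters. The highest was Aldoc, a glycolytic enzyme used as an astrocyte marker (19.3, 20.1, 24.6 and 17.5), then Mt1, a metallothionein (11.6, 12.5, 18.8 and 14.8), and Agt, angiotensinogen (13.5, 11.6, 16.4 and 8.08). Of these, Mt1 was higher in both 1 dpi libraries, and the groups overlap at the others. Hepacam, a glial adhesion protein (7.55, 9.18, 9.30 and 9.22), S100b (7.05, 10.6, 6.14 and 7.95), Slc7a10, Mt3 and Ntsr2 were also among the 9. By contrast Gfap, the intermediate filament of astrocytes, read 2.24, 2.47, 3.42 and 3.54, the water channel gene Aqp4 0, 0.851, 1.63 and 0, and Gja1, a gap junction protein, 0, 1.75, 1.59 and 0.271. The low value of Gfap is that of its annotated end, and its RefSeq start read higher. Clu, a secreted chaperone, was low in uninjured M alone (1.30, 8.32, 9.24 and 6.22).

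Between the conditions the astrocyte promoters went both ways. Of the 18 tested, both 1 dpi libraries lay above both uninjured ones at 4 (Mt1, Hepacam, Gfap and Ntsr2) and below at 3 (Gjb6, Aldh1l1 and Slc1a3), where all tested promoters have 7.35% above and 14.9% below. At the RefSeq starts of Gfap (6.77, 4.38, 9.08 and 6.53) and Aldh1l1 (3.15, 4.45, 3.63 and 6.94) the groups overlap. With limma 0 were called and 0 had an unadjusted p under 0.05. Their summed coverage was 108, 128, 139 and 110 times the mean, with no order by condition. In a bulk sample, fewer nuclei of a cell type and less signal per nucleus cannot be told apart.

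Genes of reactive astrocytes, which answer injury, lay near the class median, and some were higher in both 1 dpi libraries. Of the 31 listed, 28 are CpG-poor, with medians of 1.56, 1.41, 2.19 and 1.53, and 4 (Socs3, Lcn2, Serpina3n and H2-D1) stood at 3 times the mean in all 4 libraries. That is 14.3%, under the 22.8% of the class and the 42.8% of all promoters. Socs3, a feedback inhibitor of cytokine signalling, read 5.31, 6.95, 14.8 and 17.3 (log2 1.33) and Vim, the filament vimentin, 2.02, 3.09, 7.09 and 6.58 (log2 1.29). In both genes the 1 dpi libraries lie above the uninjured ones. Emp1, a membrane protein (0, 1.43, 2.63 and 4.67), was likewise higher, and Sphk1, a sphingosine kinase (0.1, 4.01, 4.24 and 3.54), was low in uninjured M alone. With limma 0 of the 21 tested were called after adjustment, and these 4 had an unadjusted p under 0.05. All 4 were higher at 1 dpi, beside 122 higher of all 15517 tested promoters. The uninjured mean of Emp1 lies under the level filter of 1, which it passed through its 1 dpi libraries. Its p-value is therefore not independent of the filter and no conclusion is drawn from it. Both 1 dpi libraries were above at 6 (these without Sphk1, and Ccl2, Cxcl10 and Tgm1) and below at 4 (Lcn2, Thbs1, Ptx3 and Psmb8) of the 21, beside 7.35% and 14.9% of all tested promoters. Lcn2, a siderophore-binding protein strongly made by reactive astrocytes, read 7.01, 6.85, 6.61 and 5.10, Serpina3n, a protease inhibitor, 3.35, 4.77, 11.6 and 4.48, Ccl2, a chemokine, 1.81, 1.55, 3.31 and 3.84, and the complement gene C3 1.52, 0.748, 2.08 and 0.997. The summed coverage of the list was 60.4, 67.8, 86.4 and 82.5.

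The CpG-poor promoters of oligodendrocyte genes had the highest coverage of the cell type lists. Of 23 listed genes 15 are CpG-poor, with medians of 5.40, 12.4, 13.3 and 7.47, and 11 stood at 3 times the mean or more in all 4 libraries. That is 73.3%, beside 22.8% of the class and 42.8% of all promoters. Besides Trf, high members were Cnp, a myelin enzyme (19.6, 32.8, 33.0 and 23.7), Sox10, the regulator of oligodendrocytes (28.4, 31.3, 23.1 and 12), and Mobp, a myelin protein (15.6, 25.6, 19.5 and 18.3). Mog, a surface protein of myelin, was even across libraries (11.2, 12.4, 11.3 and 11.0), and Mbp, the basic protein of myelin, was lower (3.86, 5.76, 4.73 and 5.18). Of 14 tested, 0 lay above (all promoters 7.35%) and 2 (Sox10 and Enpp2; all promoters 14.9%) below at 1 dpi, limma called 0, and 0 had an unadjusted p under 0.05. The summed coverage was 167, 266, 265 and 172, high in uninjured F and 1 dpi M. Of 6 CpG-poor promoters of oligodendrocyte precursor genes, Gpr17 (12.1, 10.1, 7.10 and 3.46) lay lower and Cspg4, the NG2 proteoglycan (4.28, 3.12, 5.43 and 6.39), higher at 1 dpi, and Pdgfra, their growth factor receptor, read 0, 0.362, 1.04 and 1.69. Limma called 0 of the 4 tested, with 0 at an unadjusted p under 0.05.

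Immune genes have promoters that are nearly all CpG-poor, those of microglia near the class median and those of neutrophils under it. The 26 of microglia and macrophages had medians of 0.921, 1.74, 2.0 and 1.57 and 1, Spi1, the lineage factor PU.1, stood at 3 times the mean in all 4 libraries (4.20, 4.05, 7.44 and 4.90). That 1 is 3.85% of these promoters, beside 22.8% of the class and 42.8% of all promoters. Cd68, a lysosomal protein, had the highest mean (6.60, 10.8, 8.90 and 2.71), and P2ry12, a receptor of resting microglia, read 0.853, 0.911, 0.0248 and 0.0884. Of 19 tested, 6 lay above (Spi1, C1qa, Itgam, Cx3cr1, Trem2 and Csf1r; all promoters 7.35%) and 1 (Aif1; all promoters 14.9%) below at 1 dpi, limma called 0, and 0 had an unadjusted p under 0.05. Their sum was 37.7, 56.1, 58.9 and 46.0. The 16 neutrophil promoters had a median mean of 0.725, S100a9 read 0 in all 4 libraries, and the highest was Ngp, a granule protein (2.38, 2.86, 1.78 and 1.97). Of 7 tested, 2 (Mmp9 and Mpo; all promoters 7.35%) lay above and 3 (Ngp, Elane and Csf3r; all promoters 14.9%) below, limma called 0 with 0 under an unadjusted 0.05, and the sum of 15.4, 18.6, 17.4 and 17.3 had no order by condition.

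Other cell types of the cord gave single high members. Among 18 endothelial and mural promoters, Tagln, a smooth muscle protein, was the 1 at 3 times the mean throughout (4.01, 3.52, 3.93 and 4.00), and of 8 tested 2 (Esam and Ly6c1) lay above and 1 (Pdgfrb) below. Among 10 ependymal ones it was Tppp3, a tubulin-binding protein (17.0, 35.6, 35.3 and 17.5), and of 7 tested 1 (Rarres2) lay above and 1 (Ccdc153) below. Among 16 neuronal ones they were Syt1, the calcium sensor of synaptic vesicles (6.54, 14.6, 11.5 and 6.64), and Snap25, of the same release machinery (6.67, 8.72, 5.50 and 3.36), and of 13 tested 1 (Chat) lay above and 4 (Snap25, Cck, Tac2 and Rbfox3) below. So 1 or 2 members stood out in each list while most were near or under the class median. Of all tested promoters 7.35% lay above and 14.9% below. At 3 times the mean throughout stood 22.8% of the class and 42.8% of all promoters. In all 3 lists limma called 0, and 0 had an unadjusted p under 0.05.

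Cartilage genes that SOX9 is known to control, as in chondrocytes, were mixed. Of 15 CpG-poor promoters, with medians of 2.53, 2.61, 4.50 and 3.35, 3 stood at 3 times the mean in all 4 libraries: Col11a2, a cartilage collagen (11.8, 26.0, 13.3 and 14.5), Chil1, a secreted glycoprotein (7.09, 14.4, 6.76 and 4.00), and Col9a3 (6.20, 8.03, 9.70 and 3.95). These 3 are 20% of the list, beside 22.8% of the class and 42.8% of all promoters. Matn1, a matrix protein, read 2.17, 1.64, 4.36 and 7.43 and was the 1 member of 12 tested with an unadjusted limma p under 0.05, while 0 were called. With Snorc, Sox6 and Cnmd it made the 4 that lay above at 1 dpi, and Chil1 was the 1 below, beside 7.35% above and 14.9% below of all tested promoters. Of 20 immediate early genes 3 are CpG-poor. Egr1, a zinc finger factor induced by stimulation, read 26.4, 38.6, 33.6 and 26.2, Maff 1.87, 4.20, 9.32 and 5.05, and Atf3, a stress-induced factor, 2.0, 1.21, 0.406 and 1.37. At the annotated ends Maff alone of the 3 lay above at 1 dpi, while at the RefSeq start of Atf3 both 1 dpi libraries (7.60 and 7.50) stood above both uninjured ones (1.83 and 6.58). That start lies 34706 bp away beside a CpG-rich start of the gene, outside the class. At the annotated ends limma called 0, and 0 had an unadjusted p under 0.05.

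Genes of other tissues were mostly at or under the class median. The 28 promoters of liver, pancreas and gut genes had a median mean of 0.571 and 3 stood at 3 times the mean throughout: Cela1, an elastase (3.37, 5.26, 9.03 and 9.28), Apoc3, an apolipoprotein (11.7, 3.33, 4.12 and 4.81), and Fga, a fibrinogen chain (3.51, 3.28, 3.35 and 3.12). Of 12 tested 4 (Cela1, Apoa2, Ctrb1 and Ttr) lay above and 1 (Muc2) below. In muscle and heart genes, 17 promoters, 0 stood at 3 times the mean throughout, the highest was Nppa, the atrial peptide (2.75, 7.05, 5.69 and 4.56), and of 13 tested 2 (Actc1 and Tnnt3) lay above and 1 (Mb) below. The 16 promoters of skin, mammary gland and lens genes had 1 member at 3 times the mean throughout, Cryaa, a lens crystallin (3.83, 7.39, 4.31 and 10.5), and of 5 tested 0 lay above and 1 (Krt14) below. Of 7 haemoglobin and red cell promoters the highest was Hba-a1, a globin chain (3.10, 1.63, 0 and 1.86), and of 4 tested 0 lay above and 2 below, among them Hba-a2, another globin chain (2.18, 2.09, 0 and 1.31). So a few of these genes stood as high as astrocyte markers, and the counts above and below stand beside 7.35% and 14.9% of all tested promoters. The counts at 3 times the mean throughout stand beside 22.8% of the class and 42.8% of all promoters. Limma called 0 in the 4 lists, and the unadjusted p was under 0.05 for Tnnt3, Myh6 and Ttr.

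Large families of the class were mostly under the class median, some near 0. The 35 bitter taste receptors had medians of 0 in all 4 libraries and 0 reached the level for testing, the 64 defensins had 0.158, 0.127, 0 and 0 (4 tested, 2 above and 0 below at 1 dpi), the 57 keratin-associated proteins of hair 0.463, 0.380, 0.219 and 0.354 (7 tested, 0 above and 2 below), and the 15 trace amine receptors 0.140, 0.380, 0 and 0.253 (3 tested, 1 above and 0 below). The 53 keratins read 0.948, 0.687, 0.682 and 0.575 (17 tested, 7 above and 3 below at 1 dpi), the 22 major urinary proteins 0.933, 0.170, 0.0934 and 0.697 (2 tested, 1 above and 0 below) and the 27 kallikreins 0.616, 0.593, 0.762 and 0.838 (11 tested, 4 above and 1 below). In the kallikreins the highest was Klk6, a protease of oligodendrocytes, with a mean of 4.71. Among 92 cytochrome P450 promoters (26 tested, 2 above and 9 below) the median mean was 0.453, 4 stood at 3 times the mean throughout, and Cyp39a1, an oxysterol hydroxylase, had the highest mean, 6.49. Among 77 lectin and immunoglobulin-like receptors (19 tested, 5 above and 1 below; median mean 0.519) it was Clec11a with 8.13, among 32 chemokines (21 tested, 6 above and 2 below; median mean 1.26) Ccl27a with 8.89, among 43 interferon-induced genes (19 tested, 3 above and 2 below; median mean 0.923) Ifi35 with 5.49, and among 59 serpins (18 tested, 4 above and 1 below; median mean 0.701) Serpini1, the neuronal protease inhibitor neuroserpin, with 33.0. The 279 zinc finger genes differed from these, with medians of 2.37, 3.73, 3.51 and 2.83, 85 of them (30.5%) at 3 times the mean throughout, and 25 above and 38 below of 227 tested. All tested promoters have 7.35% above and 14.9% below. At 3 times the mean throughout stood 22.8% of the class and 42.8% of all promoters. Limma called 0 in every family, with 1 keratin lower, 4 zinc fingers lower, 4 zinc fingers higher and 1 trace amine receptor, 1 cytochrome P450 and 1 serpin higher at an unadjusted p under 0.05.

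A gene's annotated 5′ end is not always the start that RefSeq lists. The 2 lay within 50 bp at 5368 members and more than 1 kb apart at 1024. At the RefSeq start of Gfap, 3712 bp downstream, coverage was 6.77, 4.38, 9.08 and 6.53 times the mean, above the 2.24, 2.47, 3.42 and 3.54 at the annotated end. Aldh1l1, a folate enzyme of astrocytes, read 3.15, 4.45, 3.63 and 6.94 there against 1.34, 1.24, 0.818 and 0.744, and Atf3 1.83, 6.58, 7.60 and 7.50 against 2.0, 1.21, 0.406 and 1.37. Gad1, which makes the transmitter GABA, read 4.26, 3.81, 7.87 and 3.10 there against 0, 0.446, 0.690 and 0.510. The RefSeq starts of Atf3 and Gad1 lie beside CpG-rich starts of these genes. Of the 13 named genes with starts this far apart, Gfap, Aldh1l1, Gad1 and Rbfox3 had more coverage at the RefSeq start in each library. At Pnlip, a pancreatic lipase, and Krt14 no library had more there, and the other 7 were mixed.

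Short motifs within 500 bp of the start were counted on both strands. TATAAA, read as TTTATA on the other strand, was in 39.1% of CpG-poor and 28.8% of all promoters, and starting 40 to 20 bases before the start on the gene's strand in 413 members, 3.71%, against 2.46%. Those 413, placed as TATA boxes are, had medians of 0.590, 0.404, 0.494 and 0.617 times the mean and the others 1.75, 2.16, 1.96 and 1.92. The SOX core ACAAAG, on the other strand CTTTGT, was in 54.1% and 45.9%, ACAATG, on the other strand CATTGT, in 34.1% and 27.0%, and at least 1 of them in 69.2% of CpG-poor and 59.1% of all promoters. Members with a SOX core had medians of 1.45, 1.63, 1.57 and 1.60 and those without 2.27, 3.23, 2.67 and 2.5, and their GC contents were 49.8% and 52.7%. So coverage was lower with these letters than without, and lower GC went with them. Among isolated members of like GC the gap was smaller: with a SOX core and without it, uninjured F had medians of 0.270 and 0.287 under a GC of 0.45, 1.00 and 1.23 from 0.45 to 0.5, 3.05 and 3.69 from 0.5 to 0.55, and 4.25 and 4.87 above. Under a GC of 0.45 the gap was widest in uninjured M, with 0.379 and 0.524. There 1 dpi M read 0.348 and 0.385 and 1 dpi F 0.413 and 0.430. The AP-1 letters TGANTCA were in 22.6% and 17.8% (1.25, 1.23, 1.33 and 1.30 with them and 1.83, 2.34, 2.08 and 2.04 without), and the NFI motif, TTGGC and GCCAA with 5 bases between, in 12 members, 0.108%, against 0.0724%. These 12 members went the other way, with medians of 3.07, 3.12, 3.27 and 3.78 against 1.69, 2.05, 1.88 and 1.85 without the motif. For AP-1, isolated members with the letters stood below those without in each library in each GC range under 0.55. At a GC of 0.55 or above they read 3.34, 4.12, 3.59 and 3.34 against 3.29, 4.68, 3.64 and 3.47, so uninjured M went the other way. A match is a description of the sequence, not a site.

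RefSeq promoter sequence (GRCm38.p6) was found for 8031 of the 11118 members, 72.2%. Shown 5′ to 3′ on the gene's strand are the bases before the start of the 3 astrocyte genes with the highest coverage and of Serpina3n, whose start is the nearest to the annotated end among the high reactive members, with matches to TATAAA, the SOX core or TGANTCA in capitals. Aldoc is at chr11:78322823-78322967 on the forward strand, Mt1 at chr8:94178839-94179081 on the forward strand, Agt at chr8:124569707-124569956 on the reverse strand and Serpina3n at chr12:104406458-104406707 on the forward strand. Agt has TATAAA 30 bases before its start and 0 CpG, Mt1 17 CpG and no match.
Aldoc: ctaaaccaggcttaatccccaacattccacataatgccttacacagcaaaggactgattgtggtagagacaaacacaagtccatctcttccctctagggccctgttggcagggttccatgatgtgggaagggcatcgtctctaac
Mt1: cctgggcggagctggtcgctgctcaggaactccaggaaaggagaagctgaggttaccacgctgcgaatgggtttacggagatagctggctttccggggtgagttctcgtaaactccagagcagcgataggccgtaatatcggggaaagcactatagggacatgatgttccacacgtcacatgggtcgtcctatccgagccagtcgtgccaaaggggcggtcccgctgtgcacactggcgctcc
Agt: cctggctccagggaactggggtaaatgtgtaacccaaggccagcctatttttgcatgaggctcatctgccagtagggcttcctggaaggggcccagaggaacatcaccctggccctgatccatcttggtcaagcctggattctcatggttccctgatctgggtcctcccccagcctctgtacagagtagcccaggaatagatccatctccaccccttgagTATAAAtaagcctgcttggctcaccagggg
Serpina3n: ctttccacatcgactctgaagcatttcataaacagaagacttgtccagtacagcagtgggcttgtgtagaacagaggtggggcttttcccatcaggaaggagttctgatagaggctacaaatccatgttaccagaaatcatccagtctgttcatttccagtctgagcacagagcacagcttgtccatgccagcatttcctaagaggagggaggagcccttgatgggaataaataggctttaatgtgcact

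The same stretch is given for Slc10a6 (chr5:103629404-103629653 on the reverse strand) and Hoxb1 (chr11:96365508-96365751 on the forward strand), which stood apart between the conditions without passing the test, and for Eml2 (chr7:19176171-19176420 on the forward strand) and Mobp (chr9:120149492-120149706 on the forward strand), which were chosen after their high values were seen. Mobp holds 6 matches to the SOX core, Hoxb1 1, and Slc10a6 and Eml2 0, with capitals as above.
Slc10a6: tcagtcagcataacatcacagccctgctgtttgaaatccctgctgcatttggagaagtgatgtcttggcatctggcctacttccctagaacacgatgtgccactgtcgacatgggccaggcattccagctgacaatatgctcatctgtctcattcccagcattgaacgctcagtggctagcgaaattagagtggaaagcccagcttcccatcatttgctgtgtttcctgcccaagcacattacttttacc
Hoxb1: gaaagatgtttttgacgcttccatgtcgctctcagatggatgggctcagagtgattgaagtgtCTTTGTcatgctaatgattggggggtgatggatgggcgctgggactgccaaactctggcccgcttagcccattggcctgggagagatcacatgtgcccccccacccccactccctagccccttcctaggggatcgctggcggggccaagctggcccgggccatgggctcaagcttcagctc
Eml2: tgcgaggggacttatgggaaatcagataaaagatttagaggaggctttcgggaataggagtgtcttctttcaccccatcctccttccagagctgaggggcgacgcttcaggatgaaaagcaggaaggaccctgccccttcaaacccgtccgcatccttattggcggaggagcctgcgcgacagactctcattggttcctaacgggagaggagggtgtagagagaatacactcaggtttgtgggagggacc
Mobp: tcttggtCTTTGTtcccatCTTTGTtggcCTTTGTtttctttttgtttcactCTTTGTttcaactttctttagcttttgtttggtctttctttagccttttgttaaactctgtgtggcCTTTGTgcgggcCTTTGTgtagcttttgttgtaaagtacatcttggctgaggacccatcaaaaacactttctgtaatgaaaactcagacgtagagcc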

How the data were processed

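Nuclei of 4 spinal cord samples (uninjured and 1 dpi, M and F) gave 4 SOX9 and 4 secondary-only libraries, and the SOX9 and control library of the same letter and condition come from the same nuclei sample. The authors split reads by barcode with deML, aligned them to mm10 with Bowtie2 2.5.4 and took out duplicates with Picard 3.4.0, and their SEACR 1.3 peaks were not used. The deposited coverage signal is whole-number depth along the genome, and the step that wrote it is not stated. Fragments were counted from the steps of that coverage. From it, the mean coverage of the 1 kb on each side of the 5′ end of each coding gene (GENCODE M21, GRCm38) was divided by the library mean over chromosomes 1 to 19, with Python 3.11.15, numpy 2.4.6, pandas 2.3.3 and pysam 0.24.0. GC and CpG were counted in 500 bases on each side. Members and lists were chosen with earlier results of these data known.

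Single promoters were compared with limma 3.58.1 in R 4.3.3 (moderated with trend) on log2 of scaled coverage plus 0.5, with Benjamini-Hochberg adjustment over the 15517 promoters with a mean of at least 1 in the SOX9 libraries and a limit of 0.05. Sums and medians were compared by exact permutation or sign-flip tests with scipy 1.17.1, two-sided. Transcript copies were found with BLAST 2.17.0. Named are the members past the limit or, where under 5 pass in a direction, the 5 with the largest log2 difference among those whose 1 dpi libraries both lie beyond both uninjured ones; the 10 isolated members with the highest mean and no assembly gap; members of the cell type and tissue lists, whose families are taken by symbol; and the 3 members on each side of each class limit. A few members under these rules are not reported here. Alternatives were a window of 500 bp, pseudocounts, filters, trimmed mean scaling, thinning, all 8 libraries, sex as a block, class limits and leaving out each library. Windows of 440 members touch the next, 11 members have missing bases in their class window, and 2956 hold any control fragment.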

Additional observations from a re-analysis of the deposited data

Results flagged for a closer look

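The median log2 difference between 1 dpi and uninjured over the 7448 tested CpG-poor promoters was 0.29 in the M pair and -0.39 in the F pair, opposite in sign. At 4698 members the 1 dpi library was higher in M and at 2285 in F. Over all 15517 tested promoters the medians were 0.43 and -0.57, with 10957 and 3134 higher, so the pattern is not one of CpG-poor promoters alone. Each letter has 1 library a condition and the difference was not tested. Uninjured F has 3.81 times the fragments of the shallowest SOX9 library, uninjured M, and the part of depth in the difference was not tested.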

How the results depend on the processing

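The count of CpG-poor promoters called by limma at 1 dpi was 1 and became 0 with trimmed mean scaling, no filter, a filter of 3, all 8 libraries, thinned libraries and members with several exons alone (chosen after seeing the data and taking out the 1 promoter called). It went from 0 to 2 when a library was left out, where the lone library of a group is assumed to vary like the other group. With M and F as a replicate block it stayed 1 (Gm11361, adjusted p = 0.0279). The ratio of SOX9 to control reversed to 1.19 without overlapping and shared control fragments and to 1.11 without the 10 highest members as well, both chosen after seeing the data. It was 0.870 to 0.988 with a library left out and 0.938 paired. The ratio of 1 dpi to uninjured was 0.796 to 1.15 with a library left out (reversed without uninjured F) and 0.941 with the replicate block. The CpG-poor minus CpG-rich median was -1.90 to -1.67 with a library left out. Members at the high level were 3207 uninjured and 3214 at 1 dpi. At 5 times the mean they were 1780 and 1871, with a CpG ratio limit of 0.75 5248 and 5304, and with a library left out 3662 to 4602 and 3948 to 4169. The causes were not tested. Of 158 values of the log2 differences of the 10 genes named for their size, 8, all of Gm11361, lost the limit. The genes were chosen with groups that do not overlap and some alternatives leave the difference as it is, so their kept direction shows nothing of stability. With 500 bp windows Gm10800 read 1653, Gm10722 806, Gm17535 306 and Gm10801 213. Trimmed mean scaling was not run for SOX9 against control, since 84.5% to 95.9% of 10 kb bins hold no control coverage.

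The design has 2 libraries a group, so no permutation test between conditions can reach 0.05. Depth differs 3.81 times between SOX9 libraries, and the shallowest SOX9 library has 35.6 times the fragments of the deepest control. Low members rest on a few fragments, and a value of 0 says that none was seen at this depth.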

Other observations

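Among members with the next largest differences, chosen after their values were seen and not past the limma test, Scrg1, a gene first found in scrapie-infected brain, read 0, 1.80, 5.32 and 3.74 times the mean, and Cd38, an enzyme that splits NAD, 0.761, 2.48, 12.6 and 4.68. Both stood above both uninjured libraries at 1 dpi. Dynlt1a, a dynein light chain, lay below with 9.31, 17.5, 6.33 and 1.11, and so did Itga11, a collagen receptor subunit, with 2.44, 3.10, 0.179 and 0.392. Epo, the erythropoietin gene, read 25.1, 38.9, 44.9 and 38.8 beside a CpG-rich start. Its groups overlap.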
